A study of Mus musculus with 6 samples.

Results

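The nuclear-encoded subunits of the mitochondrial respiratory chain and ATP synthase were followed in the stria vascularis of mice that lack Slc26a4 and of heterozygous controls. Members were the genes whose array platform symbol starts with Nduf, Uqcr, Cox4, Cox5, Cox6, Cox7, Cox8 or Atp5, or is Sdha, Sdhb, Sdhc, Sdhd, Cycs or Cyc1. The array held 92 such genes among 18193 genes with an unambiguous symbol and measured them with 184 probe sets (sets of short probes against 1 transcript). Another 10 probe sets named several genes and were left out. The symbols took in 8 Ndufaf genes, which encode assembly factors of complex I and not subunits, and Cox7a2l, a supercomplex assembly factor, so the members are not strictly subunits.

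The stria vascularis is the epithelium of the cochlear lateral wall that makes the high potassium of the endolymph, and Slc26a4 encodes the anion exchanger pendrin. RNA of the dissected tissue came from mice at postnatal day 10, which were heterozygous for Slc26a4 (3 arrays, replicates 1, 3 and 5) or knockout for it (3 arrays, replicates 2, 4 and 6). The labels give no strain, sex, allele or batch, and do not say whether an array held 1 animal or a pool, so the spread behind each p-value is that among these samples and may be technical. With so few arrays each value has limited precision, and an exact permutation test of 3 against 3 samples cannot go below p = 0.1.

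Complex I oxidises NADH, complex II oxidises succinate, and both pass electrons through ubiquinone to complex III, then through cytochrome c to complex IV, which reduces oxygen. Complexes I, III and IV pump protons across the inner mitochondrial membrane, and complex V, the ATP synthase, makes ATP as protons flow back. Marginal cells of the stria vascularis are rich in mitochondria and carry much Na,K-ATPase, so the tissue has a high demand for ATP.

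A marker of each strial cell layer was present in each library. Kcne1, a potassium channel subunit of marginal cells, gave signals of 5144, 5268 and 4921 in heterozygous and 5034, 5801 and 4266 in knockout samples. Tyr, the pigment enzyme of intermediate cells, gave 5149, 5271 and 5405 against 5599, 4368 and 5736. Of 14 markers of these cells on the array, 12 were tested. Of these, 11 were lower in knockout samples (median log2 difference, knockout minus heterozygous, -0.14), where 56.8% of all genes were lower. Trpm1 was the furthest, at 772, 1228 and 1075 against 417, 414 and 410 (limma adjusted p = 0.157). Marginal cell markers split into 3 higher and 4 lower, and basal cell markers into 4 higher and 3 lower. Cldn11, a claudin of the basal cell barrier, gave 7483, 8150.2 and 8160.1 against 7412, 8690.2 and 8529. Markers of neighbouring tissue differed between arrays. Of 9 tested cartilage and bone markers, 8 were higher in knockout samples (median log2 difference 1.11). For 7 of them (77.8%) the groups did not overlap, where 6.05% of all genes were so separated upwards. The summed signal of root, spindle and outer sulcus markers was 19551 in heterozygous replicate 5 and 9484 to 13060 on the other arrays. The part of such tissue in the member values was not tested. Slc26a4 itself gave 221, 248 and 1006 in heterozygous and 75.5, 106 and 154 in knockout samples, so the groups did not overlap, but its log2 difference of -1.69 ± 0.50 (SE) did not pass the threshold (limma adjusted p = 0.370). Whether its probe set lies in the deleted part of the gene is not given in the sources used here. Knockout replicate 4 stood apart, with a median correlation to the other arrays of 0.9318 where the other 5 arrays had 0.9714 to 0.9795. It also had the highest ratio of 3' to 5' signal, a measure of RNA integrity and amplification, at 1.69 for Gapdh (1.29 to 1.52 on the other arrays) and 4.48 for Actb (2.42 to 3.15). Many of the results that rest on it, though not all, are given with and without it.

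Of the member genes, 89 of 92 had at least 1 probe set above the filter on low signals, a mean signal over all arrays of about 43.9, and 170 of 184 probe sets passed. Cox8c and Cox7b2, both testis isoforms, and Ndufb4 had none above it and were not tested. For each gene the brightest tested probe set stood for the gene, and the signals given are for that probe set unless said otherwise. These signals ran from 55.2 to 12426 in mean over all arrays, with a median of 5252, and 12428 genes were tested in all. Signals of different probe sets depend on their probes and give no order of transcript abundance. The tested probe sets of members passed on their mean over both groups. For 1 of them, a dim probe set of Ndufa12, the heterozygous mean alone lay under the threshold.

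No member passed the test between the genotypes after adjustment. With limma on log2(signal + 16) and Benjamini-Hochberg adjustment over all 27022 tested probe sets, 0 of 170 member probe sets passed an adjusted p of 0.05, and the lowest adjusted p among them was 0.370. Over all probe sets 0.0037% passed, a single probe set, so a count of 0 says little about the members. At an unadjusted limma p under 0.05, 7 member probe sets (4.12%) were higher in knockout samples and 4 (2.35%) were lower. Over all tested probe sets these shares were 9.14% and 2.47%, and over those with 1 gene symbol 5.33% and 2.66%, so the members lay near or under the background. The groups did not overlap for 8 member probe sets higher in knockout samples (4.71%) and 10 lower (5.88%), where 11.0% and 5.99% of all probe sets did not. The counts moved with single arrays, and the shares over all probe sets were not computed for those fits. The count of higher probe sets was 2, 1 and 2 without heterozygous replicate 1, 3 or 5, and 4, 2 and 20 without knockout replicate 2, 4 or 6. The count of lower ones was 2, 4 and 1 without heterozygous replicate 1, 3 or 5, and 15, 5 and 5 without knockout replicate 2, 4 or 6.

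By gene, 42 members were higher in knockout samples and 47 lower, against 43.2% higher and 56.8% lower over all genes. The median log2 difference, given throughout as knockout minus heterozygous, was -0.0054 over the members and -0.04 over all genes. Differences were small, as 80 of 89 members (89.9%) lay within 0.25 of 0 on the log2 scale, where 72.0% of all genes did. The number of members higher in knockout samples was 15 of 89 after quantile normalisation and 4 of 89 after median centring. Over all genes these numbers were 4723 and 1893 of 12428. Median centring moved the median of all genes from -0.04 to -0.24 and that of the members to -0.20, so the sign of a small difference depended on the scaling. The groups did not overlap for 3 member genes higher in knockout samples (Ndufb11, Uqcrb and Cox6a1) and for 4 lower (Ndufs5, Ndufa4l2, Ndufv1 and Cox7a1). That is 3 and 4 of 89, where 6.05% and 7.03% of all genes did not overlap. An unadjusted limma p under 0.05 was reached by Uqcrb, Cox6a1 and Cox7a2, higher, and by Cox7a1, lower, where 3.15% and 3.2% of all genes reached it (6.35% in either direction), and 0.00805% of all genes passed the adjusted threshold.

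**Figure D1:**
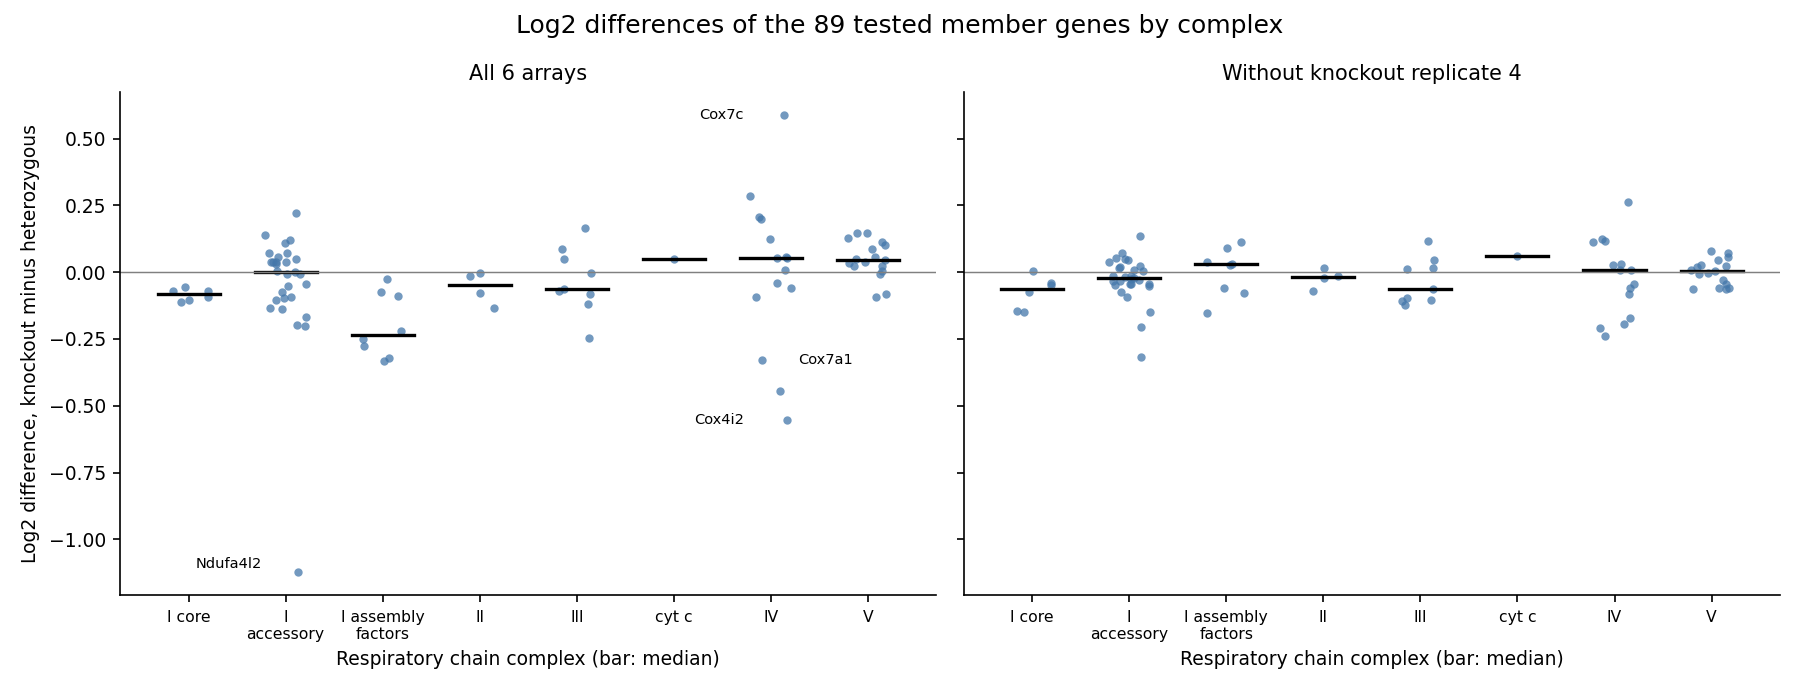
Each point is 1 of the 89 tested member genes, placed by complex on the x axis and by its log2 difference, knockout minus heterozygous, on the y axis, with all 6 arrays on the left and without knockout replicate 4 on the right. Bars are medians, which lay at -0.23 for the complex I assembly factors with all arrays and at 0.03 without that array. Genes are placed by symbol, so Ndufa4 and Ndufa4l2 are among the complex I accessory subunits and Cox7a2l is in complex IV.

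The core subunits of complex I carry the flavin and the iron-sulfur clusters that move electrons from NADH to ubiquinone. All 6 on the array had negative log2 differences, between -0.11 and -0.06, and none had an unadjusted limma p under 0.05. NDUFV1 binds the flavin that takes electrons from NADH. Its gene gave signals of 5418, 5411 and 5389 in heterozygous and 5211, 5246 and 4569.7 in knockout samples. The heterozygous samples lay close together and all 3 knockout samples lay below them, with knockout replicate 6 the lowest. The difference of -0.11 ± 0.09 (SE) did not pass (limma adjusted p = 0.661). NDUFS8 is an iron-sulfur subunit near the ubiquinone site. Ndufs8 gave 4976, 5028 and 4696 against 5056, 4252 and 4488, with knockout replicate 2 above the heterozygous samples and the other knockout samples below them. Its difference was -0.09 ± 0.09 (SE, limma adjusted p = 0.743). The remaining 4, Ndufs1, Ndufs3, Ndufs7 and Ndufv2, gave -0.11, -0.07, -0.07 and -0.06. The median of the 6 was -0.08, -0.06 without knockout replicate 4 and -0.03 without knockout replicate 6. The number lower in knockout samples was 5 of 6 when either of these arrays was left out.

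Ndufs7, whose protein holds the last iron-sulfur cluster before ubiquinone, had a second probe set with a different value. This dimmer probe set, singled out after its values were seen, gave 1483, 1434 and 1529 in heterozygous and 1279, 1103 and 1067 in knockout samples. All 3 knockout samples lay below the heterozygous range on it, with a difference of -0.37 ± 0.13 (SE, limma adjusted p = 0.372). The brighter probe set gave 5384, 6014 and 5663 against 5429, 6035 and 4848, and there the groups overlapped.

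Accessory subunits surround the core of complex I and are needed for its assembly and stability. Of 29 tested, 15 were higher and 14 lower in knockout samples, with a median of 6.5e-05 on the log2 scale, and none had an unadjusted limma p under 0.05. Genes were grouped by symbol, so Ndufa4, known as a subunit of complex IV, and its relative Ndufa4l2 are counted here. The counts were 11 higher and 18 lower without knockout replicate 4 or without knockout replicate 2, and 18 higher and 11 lower without knockout replicate 6. NDUFS5 is a small accessory subunit of the intermembrane space side. Ndufs5 gave 4804, 4904 and 4315 in heterozygous and 4079.8, 4122 and 4013 in knockout samples. Its knockout samples lay close together and below each heterozygous sample. The difference was -0.20 ± 0.09 (SE, limma adjusted p = 0.441) and -0.21 without knockout replicate 4.

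Ndufb3, another accessory subunit of the membrane arm, gave 4592, 4859.8 and 4573 against 4775, 3289.6 and 4256. Knockout replicate 2 lay within the heterozygous range, knockout replicate 6 below it, and knockout replicate 4 far below it. Its difference of -0.20 ± 0.13 (SE, limma adjusted p = 0.591) was -0.05 without that array. In the other direction, Ndufb11, an X-linked membrane arm subunit, gave 9813, 10310.3 and 10438 against 10554, 12019 and 10447. The knockout samples lay just above the heterozygous ones, with knockout replicate 4 the highest. Its difference was 0.11 ± 0.07 (SE, limma adjusted p = 0.614), 0.04 without knockout replicate 4, -0.03 after quantile normalisation and -0.09 after median centring.

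NDUFA13, also known as GRIM-19, gave 7459, 7239 and 7062 in heterozygous and 8112, 9179 and 6827 in knockout samples. NDUFV3, a small subunit beside the flavin site, gave 6132, 5957 and 5975 against 7076, 7663 and 5181. For both genes knockout replicates 2 and 4 lay above the heterozygous samples and knockout replicate 6 below them. The differences were 0.14 ± 0.10 and 0.12 ± 0.13 (SE, limma adjusted p = 0.652 and 0.765). They were 0.04 and 0.0082 without knockout replicate 4, and both were negative after median centring, at -0.06 and -0.08.

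The 8 Ndufaf genes encode factors that build complex I and leave it again. All 8 had negative differences, with the lowest median of any group at -0.23, and that value rested on knockout replicate 4. Without this array 5 were higher and 3 lower and the median was 0.03, and with array weights, which gave it a weight of 0.258, the median was 0.01. Ndufaf5, a hydroxylase of NDUFS7, gave 594, 449 and 441 in heterozygous and 538, 336 and 358 in knockout samples. Ndufaf1, an assembly factor of the membrane arm, gave 560.4, 450.4 and 425 against 461, 332 and 438. Their differences were -0.28 ± 0.23 and -0.22 ± 0.20 (SE, limma adjusted p = 0.682 and 0.724), and -0.15 and -0.08 without knockout replicate 4. In both genes knockout replicate 4 was the lowest sample and knockout replicate 2 lay within the heterozygous range.

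The 4 subunits of complex II, which is also an enzyme of the citric acid cycle, had differences between -0.13 and -0.0035, none with an unadjusted limma p under 0.05. Sdhb, the iron-sulfur subunit, gave 3607, 3141 and 3345 in heterozygous and 3402, 2593 and 3249.8 in knockout samples, with knockout replicate 4 the lowest and the other knockout samples within the heterozygous range. Its difference of -0.13 ± 0.13 (SE, limma adjusted p = 0.725) was -0.01 without that array. Sdhc, a membrane anchor that helps bind ubiquinone, gave 3945, 3205 and 3063 against 3328, 2962 and 3330.2, a difference of -0.08 ± 0.12 (SE). Sdhd, the other anchor, gave 6702, 6523 and 6469.7 against 6868, 6378 and 6409.8, a difference of -0.0035 ± 0.08 (SE). Both anchors overlapped between the groups. Without heterozygous replicate 1 the 4 subunits split into 2 higher and 2 lower, as they did without knockout replicate 6.

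Sdha, the flavin subunit that oxidises succinate, gave 4980.4, 5031 and 5300.2 in heterozygous and 4970.0, 5470.4 and 4755 in knockout samples on its brightest probe set. The groups overlapped, with a difference of -0.01 ± 0.09 (SE, limma adjusted p = 0.968). A dim probe set of the same gene gave 56.8, 56.3 and 73.4 against 134, 232 and 84.8, with all 3 knockout samples above the heterozygous range. Its difference of 0.997 ± 0.33 (SE, limma adjusted p = 0.370) was 0.66 without knockout replicate 4. The third tested probe set of Sdha gave -0.07.

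Complex III passes electrons from ubiquinol to cytochrome c. Of its 9 genes, 3 were higher and 6 lower in knockout samples, with a median of -0.06. The split was 5 higher and 4 lower without heterozygous replicate 3 or without knockout replicate 6. Uqcrb, a ubiquinone-binding subunit, was the gene of complex III with the smallest p. It gave 11916, 11554 and 11307 in heterozygous and 12815, 13910.4 and 12297 in knockout samples. All 3 knockout samples lay above the heterozygous range, with knockout replicate 4 the highest. The difference was 0.16 ± 0.07 (SE, limma adjusted p = 0.394), 0.12 without knockout replicate 4, 0.0082 after quantile normalisation and -0.04 after median centring. On the other probe set of Uqcrb the groups overlapped, with a difference of 0.03 ± 0.08 (SE).

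Uqcrh, the acidic hinge protein that helps cytochrome c dock, gave 7633, 7489.6 and 7402 against 8154, 8199.6 and 7043, a difference of 0.05 ± 0.08 (SE) that was -0.04 after quantile normalisation. Cyc1, cytochrome c1, gave 5177, 4718 and 4819 against 4940.2, 4429.7 and 4207. Knockout replicate 2 lay within the heterozygous range and the other knockout samples below it, and the difference was -0.12 ± 0.09 (SE, limma adjusted p = 0.672). Uqcrc1, a core protein of the matrix side, varied within the groups as much as between them. It gave 2691, 1649.5 and 2158 in heterozygous and 2189.7, 1384 and 1891 in knockout samples, a difference of -0.25 ± 0.21 (SE) that was -0.06 without knockout replicate 4.

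Uqcr10, a small subunit of complex III, had the smallest p of any member probe set, on its dimmer probe sets, which were singled out after their values were seen. One gave 1377, 1462 and 1566 in heterozygous and 1036, 1062 and 1179 in knockout samples, and the other 1954, 2306 and 2364 against 1334, 1694 and 1753. On both, all 3 knockout samples lay below the heterozygous range, with differences of -0.42 ± 0.13 and -0.47 ± 0.15 (SE, limma adjusted p = 0.370 for both), and -0.40 and -0.52 without knockout replicate 4. The brightest probe set of Uqcr10 gave 4640.3, 4811 and 5321 against 4892, 7014 and 4155, a difference of 0.09 ± 0.17 (SE). There knockout replicate 4 was far above the other samples and knockout replicate 6 below them. With all arrays the probe sets of this gene thus did not give 1 direction. Without knockout replicate 4 the brightest was at -0.12, so all were then negative.

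Such disagreement was common. Of 50 member genes with several tested probe sets, 28 had probe sets of opposite sign, though for 0 of these were 2 probe sets of opposite sign both at an unadjusted limma p under 0.05. The median span between the lowest and highest probe set of a gene was 0.17. Of the 7 higher probe sets with an unadjusted p under 0.05, 4 were dim ones whose gene's brightest probe set had a difference of 0.04 or less. They belonged to Sdha, Ndufb2, Atp5c1 and Atp5g2, and knockout replicate 4 was their highest sample in each case.

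Cytochrome c, the mobile carrier between complexes III and IV, has its somatic gene in Cycs. Cycs gave 8527, 8588 and 8038 in heterozygous and 8156, 8549 and 9351 in knockout samples, with knockout replicate 6 above the others. Its difference of 0.05 ± 0.08 (SE, limma adjusted p = 0.846) was -0.06 after quantile normalisation and -0.05 as the mean of its probe sets.

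Complex IV, cytochrome c oxidase, had 15 tested genes, 9 higher and 6 lower, with a median of 0.05 that was 0.0097 without knockout replicate 4 and -0.07 after quantile normalisation. By symbol, the assembly factor Cox7a2l is counted among these genes and Ndufa4 is not. Several subunits of complex IV exist as a general isoform and a tissue isoform. The COX7A isoforms had log2 differences of opposite sign. Cox7a1, the isoform known from heart, skeletal muscle and brown fat, gave 4145, 3628 and 3824 in heterozygous samples (mean 3866 ± 261, SD, n = 3) and 3595, 2709 and 2965 in knockout samples (mean 3089.7 ± 456, SD, n = 3). All 3 knockout samples lay below the heterozygous range, with knockout replicate 2 the nearest. The difference was -0.33 ± 0.12 (SE, limma adjusted p = 0.374), -0.24 without knockout replicate 4 and -0.32 after quantile normalisation.

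Cox7a2, the general isoform, gave 10090.3, 9634 and 10248 in heterozygous (mean 9991 ± 319, SD, n = 3) and 11749.8, 12869.5 and 10104 in knockout samples (mean 11574 ± 1391, SD, n = 3). Knockout replicates 2 and 4 lay above the heterozygous range and knockout replicate 6 within it. The difference was 0.21 ± 0.09 (SE, limma adjusted p = 0.420), 0.13 without knockout replicate 4 and 0.05 after quantile normalisation. The difference between the isoforms' responses was not tested. Cox7a2l, the supercomplex assembly factor of this family, gave 5381, 4950.4 and 4682 against 5467, 4518 and 4628, and its groups overlapped (-0.04 ± 0.10, SE).

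Cox6a1, the general isoform of COX6A, gave 10213, 9717 and 10495 in heterozygous (mean 10142 ± 394, SD, n = 3) and 11252, 13068 and 10717 in knockout samples (mean 11679 ± 1232, SD, n = 3). All 3 knockout samples lay above the heterozygous range, with knockout replicate 4 the highest. The difference was 0.20 ± 0.08 (SE, limma adjusted p = 0.402), 0.12 without knockout replicate 4, 0.05 after quantile normalisation and -0.00068 after median centring. The other probe set of Cox6a1 gave 8147, 7337 and 6530 against 6453, 8037 and 6906, which overlapped. There the difference was -0.04 ± 0.11 (SE), and -0.13 without knockout replicate 4. Cox6a2, its muscle isoform, gave dim signals of 46.6, 86.4 and 89.4 against 66.8, 119.8 and 93.0, which overlapped (0.29 ± 0.30, SE).

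The members of complex IV with an unadjusted p under 0.05 are shown with their promoters, to set the tissue isoform beside the general ones. The sequences run from 250 bases before to 50 after the annotated start, 5′ to 3′ on the gene's strand, from RefSeq (GRCm38.p6). Capitals mark matches, on either strand, to the NRF-1 motif (GCGC, any 2 bases, GCGC), the GABP motif CCGGAAG, the YY1 motif AAGATGGC or the ERR motif AAGGTCA, which are sites of factors known to regulate respiratory chain genes. Cox6a1 lies at chr5:115348909-115349208 on the minus strand, Cox7a1 at chr7:30183921-30184220 on the plus strand, and Cox7a2 at chr9:79759804-79760103 on the minus strand.
Cox6a1: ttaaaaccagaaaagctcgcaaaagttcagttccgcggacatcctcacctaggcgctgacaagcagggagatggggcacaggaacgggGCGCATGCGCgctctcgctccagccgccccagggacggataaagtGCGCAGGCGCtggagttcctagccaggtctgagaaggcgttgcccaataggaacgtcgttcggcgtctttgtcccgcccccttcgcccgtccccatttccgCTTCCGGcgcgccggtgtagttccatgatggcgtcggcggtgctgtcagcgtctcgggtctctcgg
Cox7a1: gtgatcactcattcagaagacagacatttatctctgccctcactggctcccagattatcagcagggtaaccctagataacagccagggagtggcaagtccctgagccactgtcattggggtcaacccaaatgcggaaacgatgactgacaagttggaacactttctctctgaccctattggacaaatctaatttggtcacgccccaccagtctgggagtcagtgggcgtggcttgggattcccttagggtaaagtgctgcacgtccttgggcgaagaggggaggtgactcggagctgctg
Cox7a2: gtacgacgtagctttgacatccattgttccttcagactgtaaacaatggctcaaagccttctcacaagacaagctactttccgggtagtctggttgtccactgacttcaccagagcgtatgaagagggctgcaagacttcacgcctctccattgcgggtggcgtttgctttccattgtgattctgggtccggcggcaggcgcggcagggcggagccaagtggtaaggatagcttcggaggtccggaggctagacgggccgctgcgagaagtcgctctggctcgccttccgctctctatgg

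The Cox6a1 promoter held NRF-1 matches at positions -162 to -153 and -117 to -108 from the start and a GABP match at -16 to -10, and the Cox7a1 and Cox7a2 windows held no match to these letters. Promoters were found for 75 of 92 member genes. A gene with several promoter windows was counted once, with a match in any of them. NRF-1 matches were found for 19 member genes (25.3%, against 9.61% of 17491 protein-coding genes, with windows of the same length) and GABP matches for 19 (25.3% against 12.9%). YY1 matches were found for 10 (13.3% against 3.57%) and ERR matches for 8 (10.7% against 4.73%), and 43 genes (57.3% against 26.8%) had at least 1 of the motifs. The median GC content was 59% for members and 56.3% for protein-coding genes. These are counts of letters, with no overlapping matches between motifs and no measure of binding.

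Cox4i1, the general isoform of COX4, gave 8581, 8773 and 8784 in heterozygous and 8823, 10623 and 7926 in knockout samples. Knockout replicates 2 and 4 lay above and knockout replicate 6 below the heterozygous range, and the difference of 0.06 ± 0.10 (SE) was -0.06 without knockout replicate 4. Cox4i2, the oxygen-regulated isoform, gave 218, 291 and 224 against 240.1, 87.3 and 189. Its knockout replicate 4 lay far below all other samples, and the difference of -0.55 ± 0.33 (SE, limma adjusted p = 0.552) was -0.17 without it.

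Ndufa4, named for complex I but known as a subunit of complex IV, gave 7003, 6392 and 6678 against 7788, 6834 and 6348, and the groups overlapped (0.06 ± 0.09, SE). Ndufa4l2, its hypoxia-induced relative, gave 139, 189.6 and 134 in heterozygous and 119, 9.32 and 119 in knockout samples. All 3 knockout samples lay below the heterozygous range, but knockout replicate 4 stood apart at 9.32, under the filter threshold. The difference of -1.12 ± 0.57 (SE, limma adjusted p = 0.478), the largest in size of any member gene, was -0.32 without that array.

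Ndufa4l2 and Cox4i2 are known from pericytes of some vascular beds, and most markers of vascular cells were low on the same array. Knockout replicate 4 was the lowest of the 6 arrays for 9 of 10 endothelial markers, the exception being Kdr, and for 6 of 9 pericyte and smooth muscle markers, the exceptions being Abcc9, Myh11 and Pdgfrb. The summed signal of 9 pericyte and smooth muscle markers on the array was 9699 to 12195 in heterozygous samples, 10671 and 11655 in knockout replicates 2 and 6, and 7128 in knockout replicate 4. Without Rgs5, which gave most of that sum, it was 3071 to 3953 in heterozygous samples, 3200.3 and 3939 in knockout replicates 2 and 6, and 2642 in knockout replicate 4. The sum of 10 endothelial markers was 6347 to 10875 in heterozygous samples, 6549.6 and 9872 in knockout replicates 2 and 6, and 3026 in knockout replicate 4, though Kdr, the VEGF receptor, was higher there (579) than in any heterozygous sample (429, 539 and 433). Acta2, the smooth muscle actin, gave 428, 352 and 417 in heterozygous and 220.4, 79.9 and 88.8 in knockout samples. As for Ndufa4l2, all 3 knockout samples lay below the heterozygous range (-1.63 ± 0.33, SE, limma adjusted p = 0.351). Of 8 tested pericyte and smooth muscle markers, Acta2 was the only 1 (12.5%) whose groups did not overlap, where 7.03% of all genes were so separated downwards. Without knockout replicate 4, 5 of the 8 were higher and 3 lower (median 0.07). The part of these cells in the values of Ndufa4l2 and Cox4i2 was not tested. In whole tissue, fewer cells of a type and less RNA per cell cannot be told apart.

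Cox6b1, the general isoform of COX6B, gave 8792, 9210.3 and 9067 against 9716, 9630.4 and 8754 (0.05 ± 0.07, SE). Cox6b2, known from testis, gave 416, 557 and 489.7 in heterozygous and 380.2, 243 and 468 in knockout samples, again with knockout replicate 4 the lowest. Its difference of -0.45 ± 0.25 (SE, limma adjusted p = 0.527) was -0.19 without that array. Cox8a, the general isoform of COX8, gave 3255, 3040.2 and 2714 against 3067, 2818 and 2746 and overlapped (-0.06 ± 0.11, SE).

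Cox8b, known from heart, skeletal muscle and brown fat like Cox7a1, gave 5173, 5687 and 5748 in heterozygous and 5115, 6063 and 4478 in knockout samples. Its groups overlapped, with knockout replicate 4 above and knockout replicates 2 and 6 below the heterozygous range, and the difference was -0.09 ± 0.12 (SE, limma adjusted p = 0.794). Markers of those tissues were mostly under the filter threshold in the same samples. Of 12 skeletal and cardiac muscle markers on the array, 1 (Atp2a1) passed the filter, with signals of 55.2 to 102.7, Ckm gave 13.1 to 40.3 and Acta1 1.53 to 24.5. Their summed signal was 296 to 433 in heterozygous and 347 to 473 in knockout samples. Of 6 adipocyte markers on the array, 1 (Cidea) passed, at 45.6 to 118, and Ucp1, the uncoupler of brown fat, gave 13.4 to 30.5. The adipocyte sum was 138 to 252 in heterozygous and 92.9 to 155 in knockout samples.

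Cox7c, a small subunit with no tissue isoform among the members, had the largest positive difference of any member gene and was named after its values were seen. Its signal was 334, 235 and 343 in heterozygous and 547, 733 and 239 in knockout samples. Knockout replicates 2 and 4 lay above the heterozygous range and knockout replicate 6 within it. The difference of 0.59 ± 0.36 (SE, limma adjusted p = 0.567) was 0.26 without knockout replicate 4. The other probe set of Cox7c, a dimmer one, gave 98.1, 73.2 and 93.3 against 78.1, 244 and 81.2. There the difference of 0.37 ± 0.38 (SE) was -0.12 without knockout replicate 4.

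**Figure D2:**
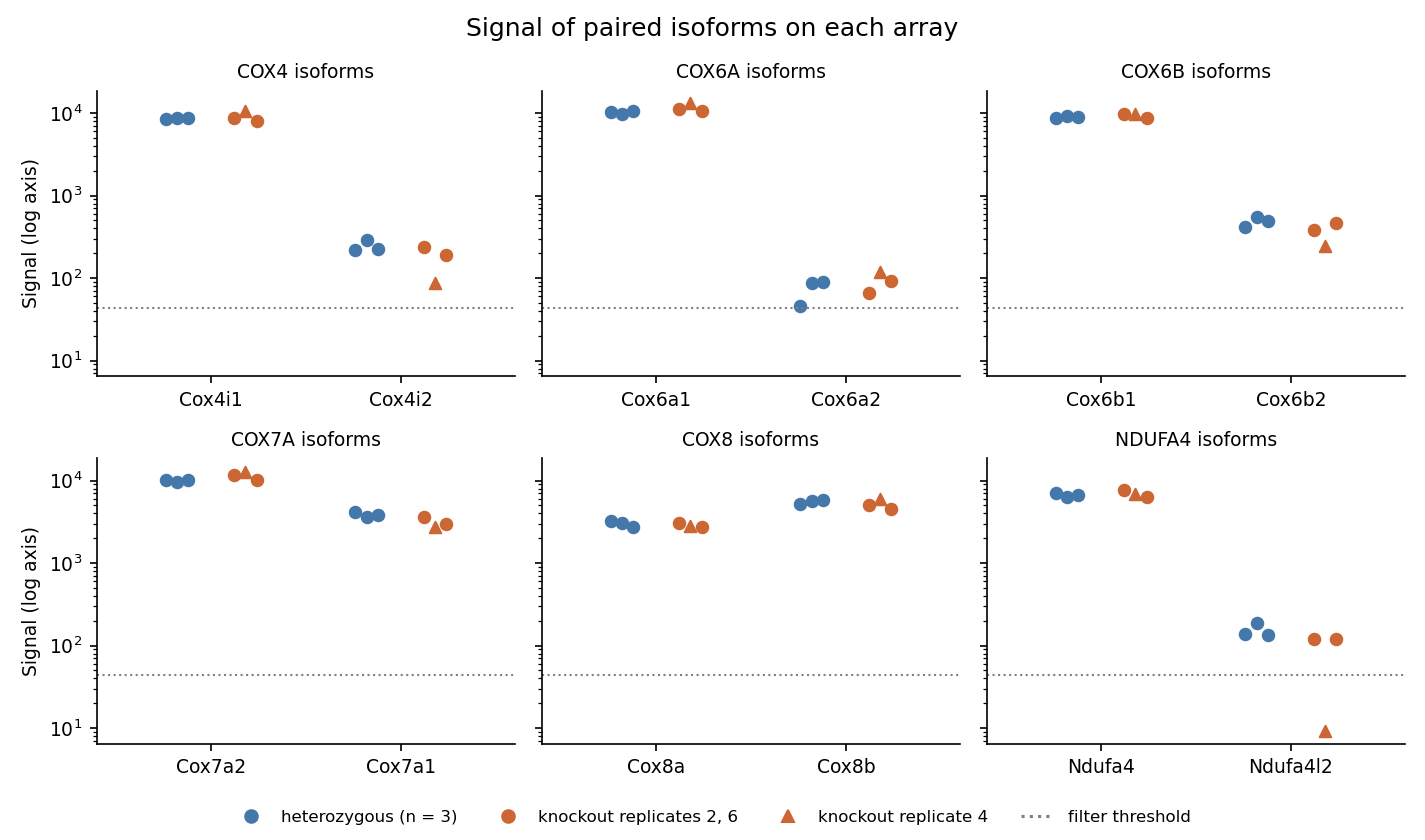
Signal on each array, on a log axis, of the general isoform (left in each panel) and the tissue or regulated isoform (right) of 6 pairs, with heterozygous samples in blue, knockout samples in orange, knockout replicate 4 as a triangle and the filter threshold dotted. Cox7a1 was lower in each knockout sample than in each heterozygous one, and knockout replicate 4 stood apart for Cox4i2, Cox6b2 and Ndufa4l2.

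Complex V had 17 tested genes. Knockout samples were higher for 14 and lower for 3, with a median of 0.05, and none had an unadjusted limma p under 0.05. Its differences ran from -0.09 to 0.15. The count was 9 higher and 8 lower without knockout replicate 4 or without knockout replicate 2, with medians of 0.0053 and 0.0006, and 5 were lower without heterozygous replicate 3. After median centring the median was -0.15. Atp5a1, the alpha subunit of the catalytic head, gave 10203, 9765 and 9929.7 in heterozygous and 11042, 12153 and 10035 in knockout samples. Knockout replicate 6 lay within the heterozygous range and the other knockout samples above it. The difference of 0.15 ± 0.08 (SE, limma adjusted p = 0.506) was 0.08 without knockout replicate 4 and -0.01 after quantile normalisation.

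Atp5h, subunit d of the stator stalk, gave 9340.3, 9017 and 8902 against 10177, 10183 and 8938, a difference of 0.10 ± 0.08 (SE) that was -0.04 after quantile normalisation. The genes Atp5g1, Atp5g2 and Atp5g3 encode the same mature c subunit of the rotor ring, with different targeting peptides. Atp5g1 gave 5217, 4439 and 4500.2 in heterozygous and 4793, 4220.4 and 4255 in knockout samples, and Atp5g2 3584, 3255 and 3088 against 3329.8, 3027 and 3020.4. Their differences were -0.09 ± 0.10 and -0.08 ± 0.10 (SE). Atp5g3 gave 8331, 8442 and 8762 against 9157, 10423 and 8156, with knockout replicates 2 and 4 above and knockout replicate 6 below the heterozygous range. Its difference of 0.11 ± 0.09 (SE, limma adjusted p = 0.680) was 0.02 without knockout replicate 4 and -0.0046 after quantile normalisation.

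Array by array, the knockout samples did not move together. In the median over the genes of a complex, relative to the heterozygous mean, knockout replicate 4 was at 0.15 for complex V and 0.14 for complex IV but at -0.51 for the assembly factors. Knockout replicate 6 was at -0.17 for the complex I core, -0.16 for complex III and -0.13 for complex V, and knockout replicate 2 was at 0.13 for complex V. The medians of complexes IV and V thus had opposite signs in knockout replicates 4 and 6.

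**Figure D3:**
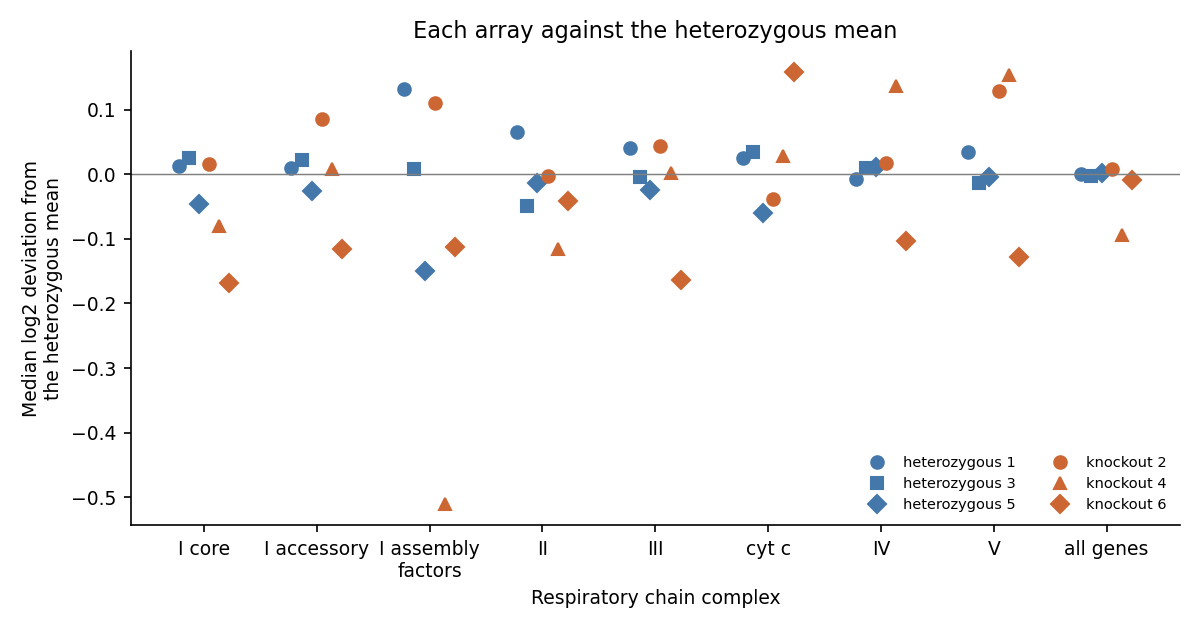
Median log2 deviation from the heterozygous mean over the tested genes of each complex (x axis) for each of the 6 arrays, with heterozygous arrays in blue and knockout arrays in orange. Knockout replicate 4 lies at -0.51 for the complex I assembly factors and at 0.15 for complex V, while knockout replicate 6 lies at -0.13 for complex V.

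The differences of members varied with their signal level. With all arrays, all 23 member probe sets with a mean signal of 8000 or more were higher in knockout samples, with a median of 0.09, as were 167 of 179 probe sets of any gene at that level (median 0.11). At any level, 49.4% of all tested probe sets were higher and 50.6% lower. Between 5000 and 8000 the members split into 26 higher of 48 (54.2%, median 0.0025), where 69.3% of the probe sets of any gene were higher. Between 2000 and 5000, 8 of 55 were higher (14.5%, median -0.09), where 39.4% of the probe sets of any gene were. Between 500 and 2000, 0 of 15 were higher (median -0.25), where 35.9% of the probe sets of any gene were (median -0.07). The differences did not follow signal down to the dimmest members. Below 500, 17 of 29 were higher (58.6%, median 0.11), where 50.3% of the probe sets of any gene were (median 0.0024). Of the 29, 4 (13.8%) were higher at an unadjusted limma p under 0.05, where 7.33% of the probe sets of any gene at that level were.

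Knockout replicate 4 was at 0.23 from the heterozygous mean in the median of the brightest member probe sets and at -0.46 between 500 and 2000. Without it the medians were 0.03 at 8000 or more, where 18 of 23 were higher, and -0.06 between 500 and 2000, where 4 of 15 were higher. Below 500, 15 of 29 were higher without it, with a median of 0.0033. After quantile normalisation 5 of the 23 brightest were higher, with a median of -0.06. The levels were chosen after the data were seen. Complex V and the general isoforms of complex IV have many bright probe sets and the assembly factors dim ones, and the part of signal level in the differences between complexes was not tested.

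**Figure D4:**
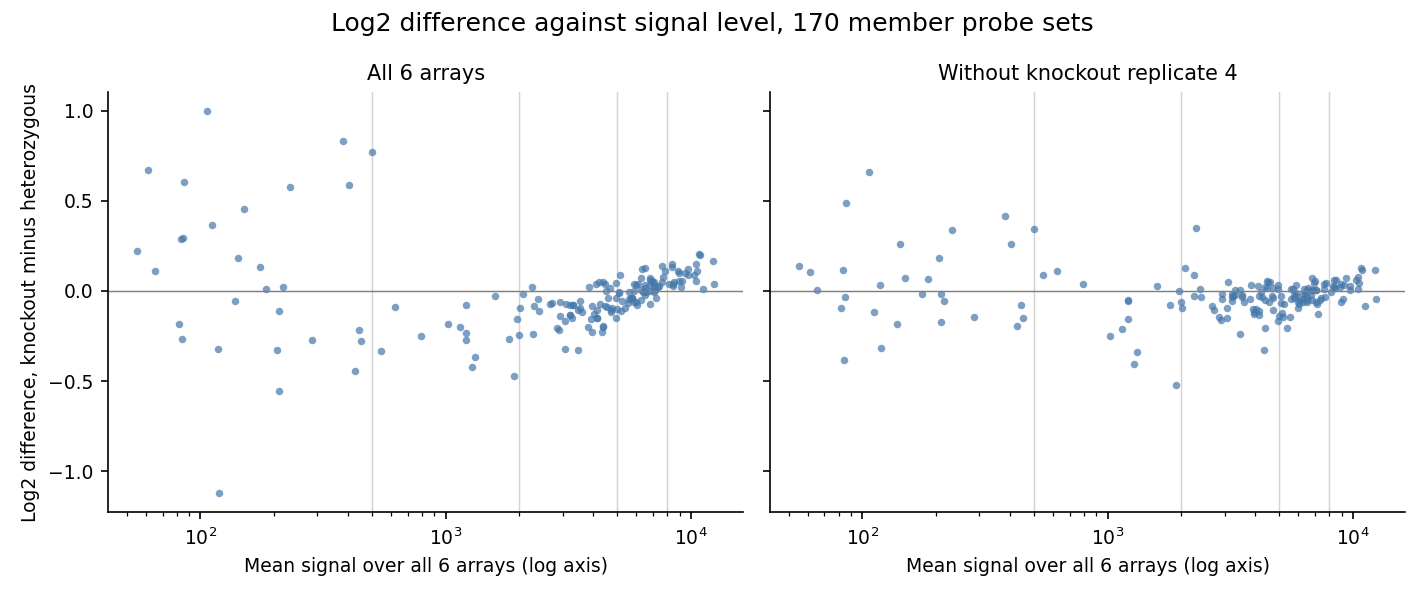
Log2 difference, knockout minus heterozygous (y axis), of the 170 tested member probe sets against their mean signal over all 6 arrays (x axis, log scale), with all arrays on the left and without knockout replicate 4 on the right. Vertical lines mark the signals of 500, 2000, 5000 and 8000 that bound the levels, and all 23 probe sets at 8000 or more lie above 0 on the left, against 18 on the right.

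Other genes of mitochondrial energy metabolism were described from lists, without a test of the list. The 1 subunit encoded by mitochondrial DNA that the array measured, ND5 of complex I, gave 9855, 10735 and 10974 in heterozygous and 11012, 16479 and 11068 in knockout samples. All 3 knockout samples lay above the heterozygous range, with knockout replicate 4 far above, and the difference of 0.26 ± 0.14 (SE, limma adjusted p = 0.500) was 0.07 without that array. Of 37 tested assembly factors outside the Nduf symbols, 9 were higher and 28 lower (median -0.14, and -0.06 without knockout replicate 4). Of 76 mitochondrial ribosomal protein genes, 13 were higher and 63 lower (median -0.13, and -0.02 without that array). In limma, 0 genes of these and the following lists passed the adjusted threshold. At an unadjusted p under 0.05 there were 3 in all, each lower in knockout samples: Mrpl34 (-0.46 ± 0.15, SE), Mrpl35 (-0.42 ± 0.19, SE) and Esrrg. That was 2.63% of the ribosomal protein genes and 5% of the 20 regulators of mitochondrial biogenesis. Of all genes 3.2% were lower at that p, so the counts lay near the background. Mrpl34, a protein of the large mitochondrial ribosomal subunit, gave 1795, 2291 and 2054 in heterozygous and 1255, 1507 and 1703 in knockout samples, which did not overlap.

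Of 18 genes of the citric acid cycle and pyruvate dehydrogenase, 4 were higher and 14 lower (median -0.08). Idh3a, the catalytic subunit of the NAD-dependent isocitrate dehydrogenase, gave 3936, 3676 and 3527 against 3396, 3124 and 3107, with all 3 knockout samples below the heterozygous range (-0.21 ± 0.10, SE, limma adjusted p = 0.444). Of 20 regulators of mitochondrial biogenesis, 5 were higher and 15 lower (median -0.10). Esrrg, a nuclear receptor that drives respiratory chain genes, gave 2009, 1948 and 1508 in heterozygous and 1040.3, 1188 and 1537 in knockout samples. Knockout replicate 6 lay above the lowest heterozygous sample and the other knockout samples below the heterozygous range. Its difference was -0.54 ± 0.18 (SE, limma adjusted p = 0.370) and -0.51 without knockout replicate 4. Nrf1, which binds the NRF-1 motif, gave 122, 94.3 and 92.2 against 147, 176 and 123, with all 3 knockout samples above the heterozygous range (0.47 ± 0.24, SE, limma adjusted p = 0.481). Carriers and porins split into 7 higher and 6 lower of 13 (median 0.01), and ubiquinone donors and synthesis genes into 6 higher and 11 lower of 17 (median -0.03).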

How the data were processed

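Per the labels, total RNA (Qiagen kit) was labelled by the Ovation protocol of NuGEN and hybridised to Affymetrix mouse arrays. The deposited unit is signal intensity, untransformed, from GCOS per the submitters' processing notes. Its version is not given in the sources used here. A trimmed mean of 500.002 was found on each of the 6 arrays, so the arrays had been scaled before deposit, and the deposited scaling was kept.

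Groups and replicate numbers came from the sample titles. The 64 control probe sets were left out, the signal was transformed as log2(signal + 16), which understates the change of dim genes, and probe sets under the 40th percentile of the mean log2 value over all arrays (43.9 as a signal) were dropped, so that 27022 of 45101 were tested. All of these were fitted together by limma 3.58.1 (R 4.3.3) with eBayes and a variance trend. Tests were two-sided, p-values were adjusted by Benjamini-Hochberg, and the threshold was 0.05. The test was checked on simulated data. Symbols came from the platform annotation, and probe sets with several symbols (932) or none (9160) stand for no gene. The brightest tested probe set stood for a gene. ± beside a log2 difference is its SE, and ± beside a signal its SD.

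The members and lists were chosen with earlier results of these data known. Named were Slc26a4, members past the threshold, up to 2 members in each direction with the smallest p in a complex (up to 3 for complex I accessory subunits), the complex II and cytochrome genes, the isoform families, and up to 2 genes of other mitochondrial lists. Other names were chosen after their values were seen. Promoters were read from a RefSeq table of GRCm38.p6 by symbol. Alternatives were offsets of 1 and 64, no filter and a 60th percentile filter, quantile normalisation, median centring, array weights, no variance trend, 1 probe set per gene, averaging all probe sets of a gene, and the omission of single arrays. Python 3.11.15 and matplotlib 3.10.9 made the figures.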

Additional observations from a re-analysis of the deposited data

How the results depend on the processing

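No member passed the adjusted threshold under any of the 15 alternatives run on that count, and the lowest adjusted p of a named member over the alternatives was 0.148. The number of member probe sets at an unadjusted limma p under 0.05 was 11, and it was 50 after median centring, 4 with 1 probe set per gene and 6 without the variance trend, with a range of 3 to 25 when 1 array was left out. The 7 higher ones became 4 with no filter, 2 after quantile normalisation, 1 after median centring, 4 with array weights, 3 with 1 probe set per gene and 3 without the trend (1 to 20 when 1 array was left out). The 4 lower ones became 7 after quantile normalisation, 49 after median centring and 1 with 1 probe set per gene (1 to 15 when 1 array was left out). The share of all probe sets at that p was not computed under the alternatives, so these counts have no background beside them. Median centring moved the median of all genes to -0.24 as well, with 1893 of 12428 genes higher in knockout samples. Median centring moved the median log2 difference to -0.20 over all members, -0.28 for the complex I core, -0.20 for the accessory subunits, -0.25 for complex II, -0.26 for complex III, -0.15 for cytochrome c, -0.15 for complex IV and -0.15 for complex V. Quantile normalisation moved complex IV to -0.072 and cytochrome c to -0.058, and the mean of all probe sets moved cytochrome c to -0.048. The assembly factor median was 0.012 with array weights and ran from -0.38 to 0.030 when 1 array was left out. For these changes of value the cause was not tested.

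The log2 difference changed sign in 20 named members, of which 0 passed the adjusted threshold in either case. After quantile normalisation these were Atp5a1 (-0.011), Atp5g3 (-0.0046), Atp5h (-0.036), Cox4i1 (-0.073), Cox6b1 (-0.071), Cycs (-0.058), Ndufa4 (-0.013), Ndufb11 (-0.028) and Uqcrh (-0.044). After median centring they were Atp5a1 (-0.051), Atp5g3 (-0.087), Atp5h (-0.098), Cox4i1 (-0.14), Cox6a1 (-0.00068), Cox6b1 (-0.15), Cycs (-0.15), Ndufa13 (-0.062), Ndufa4 (-0.14), Ndufb11 (-0.091), Ndufv3 (-0.078), Uqcrb (-0.035) and Uqcrh (-0.15). With array weights they were Cox4i1 (-0.012), Cox7a2l (0.052), Cox8a (0.017), Sdhc (0.022) and Sdhd (0.027). With the mean of all probe sets they were Atp5g2 (0.26), Cox8a (0.0026), Cycs (-0.048), Sdha (0.30) and Sdhd (0.0098). When 1 array was left out, the differences ran from -0.059 to 0.15 for Cox4i1, -0.13 to 0.012 for Cox7a2l, -0.13 to 0.00054 for Cox8a, -0.21 to 0.010 for Cox8b, -0.0052 to 0.093 for Cycs, -0.022 to 0.13 for Ndufa4, -0.069 to 0.031 for Sdha, -0.15 to 0.031 for Sdhc and -0.038 to 0.015 for Sdhd. No paired analysis was run because the labels do not say whether samples were paired.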
